A study of Mus musculus with 10 samples.

Results

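Alveolar fibroblast markers are 8 genes, chosen by name, that single-cell studies of the mouse lung use to tell the fibroblasts of the gas-exchange region from those of the airways and vessel walls: Tcf21, Limch1, Inmt, Ces1d, Slc7a10, Col13a1, Macf1 and G0s2. All 8 were found among the 54532 genes of the count table. They were measured by poly(A)-selected RNA-seq in primary mouse lung fibroblasts kept in medium with 10% fetal bovine serum and no added stimulus. Of the 10 libraries, 5 were wild type and 5 carried a knockout of Mrc2, the endocytic collagen receptor. No age, strain or knockout allele is named in the sources used here, and the titles call the replicates biological without saying that they came from separate animals, so p-values measure the spread between these samples.

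Alveolar fibroblasts lie in the walls of the air sacs next to the gas-exchange epithelium. Some of them hold lipid droplets and are called lipofibroblasts. Tcf21, a basic helix-loop-helix transcription factor that pairs with E proteins, is required in the lung mesenchyme of the mouse embryo. Col13a1 encodes a collagen anchored in the plasma membrane, and its name is used for this fibroblast class in mouse lung atlases. Limch1 encodes an actin-associated protein that binds non-muscle myosin, and Macf1 a giant linker of microtubules to actin. Inmt methylates tryptamine and related amines, Ces1d cleaves esters and triglycerides, Slc7a10 carries small neutral amino acids, and G0s2 inhibits the triglyceride lipase encoded by Pnpla2.

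The libraries held 19603933 to 29944615 counted reads. Mrc2 lay between 568 and 1027 CPM (reads scaled to library size by the TMM method) in wild type and between 206 and 282 CPM in knockout, so all 10 libraries matched their labels, with a knockout mean at 28.7% of the wild-type mean. The fibroblast label was matched by Col1a1, at 5338 to 11654 CPM in wild-type cells and 8974 to 17578 CPM in knockout. Leukocyte markers were also present: the 8 marker genes summed to 2280 to 11279 CPM in wild-type cells and to 2723 to 6088 CPM in knockout cells. Most of that sum was Lyz2, at 1906 to 9806 CPM in wild-type cells and 2207 to 5213 CPM in knockout cells. Epithelial markers summed to at most 4.29 CPM in any library, with Sftpa1 at 0 in all of them. All libraries carry the same batch label, but the library names form separate series by genotype, so any difference tied to those series and the genotype cannot be told apart. The wild-type names are numbered without a gap, while that of knockout replicate 5 stands apart from the run of the other knockout names. What that gap reflects is not stated.

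Of the 8 alveolar markers, 4 were well measured in these cultures and 4 were close to undetectable. Tcf21, Limch1, Macf1 and G0s2 passed the filter on low counts. Inmt, Col13a1, Ces1d and Slc7a10 did not. Per kilobase of exon, Macf1 and Tcf21 stood highest. Macf1 was at 9.59 ± 1.65 CPM per kb in wild type and 10.29 ± 1.35 CPM per kb in knockout (SD, n = 5 each). Tcf21 was at 8.41 ± 2.73 and 11.04 ± 6.26 CPM per kb, below Macf1 by the wild-type mean and above it by the knockout mean. These neighbours did not separate: Macf1 was above Tcf21 in 7 of 10 libraries. G0s2 followed at 4.22 ± 1.30 and 4.71 ± 1.51 CPM per kb and lay below Tcf21 in 9 of 10 libraries. Limch1, at 0.646 ± 0.210 and 1.05 ± 0.460 CPM per kb, was below G0s2 in 10 of 10 libraries. Inmt was below Limch1 in 10 of 10 libraries, with 0.212 ± 0.152 and 0.0954 ± 0.0989 CPM per kb. Below Inmt, the order of Col13a1, Ces1d and Slc7a10 rests on a handful of reads. In bulk RNA, fewer cells of a type and less RNA per cell cannot be told apart.

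**Figure D1:**
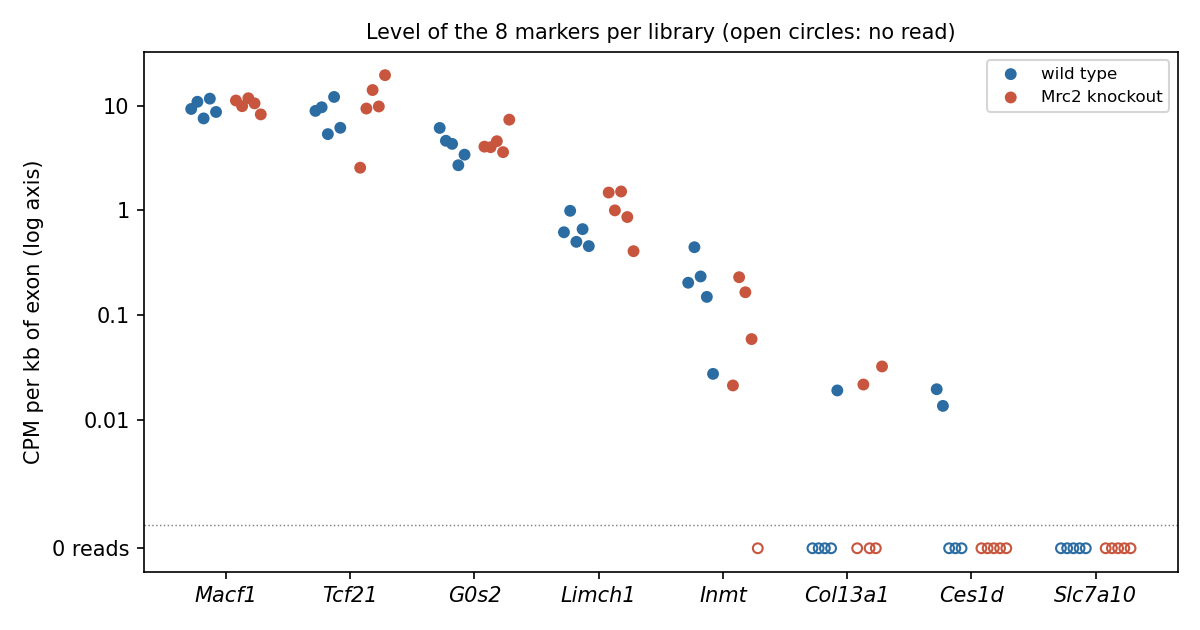
Level of each of the 8 markers in each library, in CPM per kilobase of exon on a log axis, for 5 wild-type (blue) and 5 Mrc2 knockout (red) libraries. Open circles in the band at the bottom are libraries without a read of the gene: Slc7a10 has no read in 10 of 10 libraries, while Macf1, Tcf21, G0s2 and Limch1 have reads in all.

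Whether loss of Mrc2 changed these markers was asked in a fit over all 14360 genes that passed the filter. None of the 4 tested members passed (0 of 4 by edgeR's quasi-likelihood test at an adjusted p under 0.05, where 0.0139% of all tested genes passed). Without adjustment 0 of 4 had p under 0.05, against 13.3% of all genes. DESeq2 called 0 of 4 (1.69% of all genes). Its unadjusted p was under 0.05 for 1 of 4, Limch1, and for 15.6% of all genes. The limma-voom fit called 0 of 4, and 1 of all 14360 genes. No tested member had groups that did not overlap, a pattern seen for 2.05% of all tested genes. The fitted log2 values of all 4 were positive (median 0.27). Of all tested genes 48.4% were positive, with a median of -0.012. The intervals of the 4 differences, given below, are wide for Tcf21 and Limch1, so a missed threshold does not show equal levels.

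**Figure D2:**
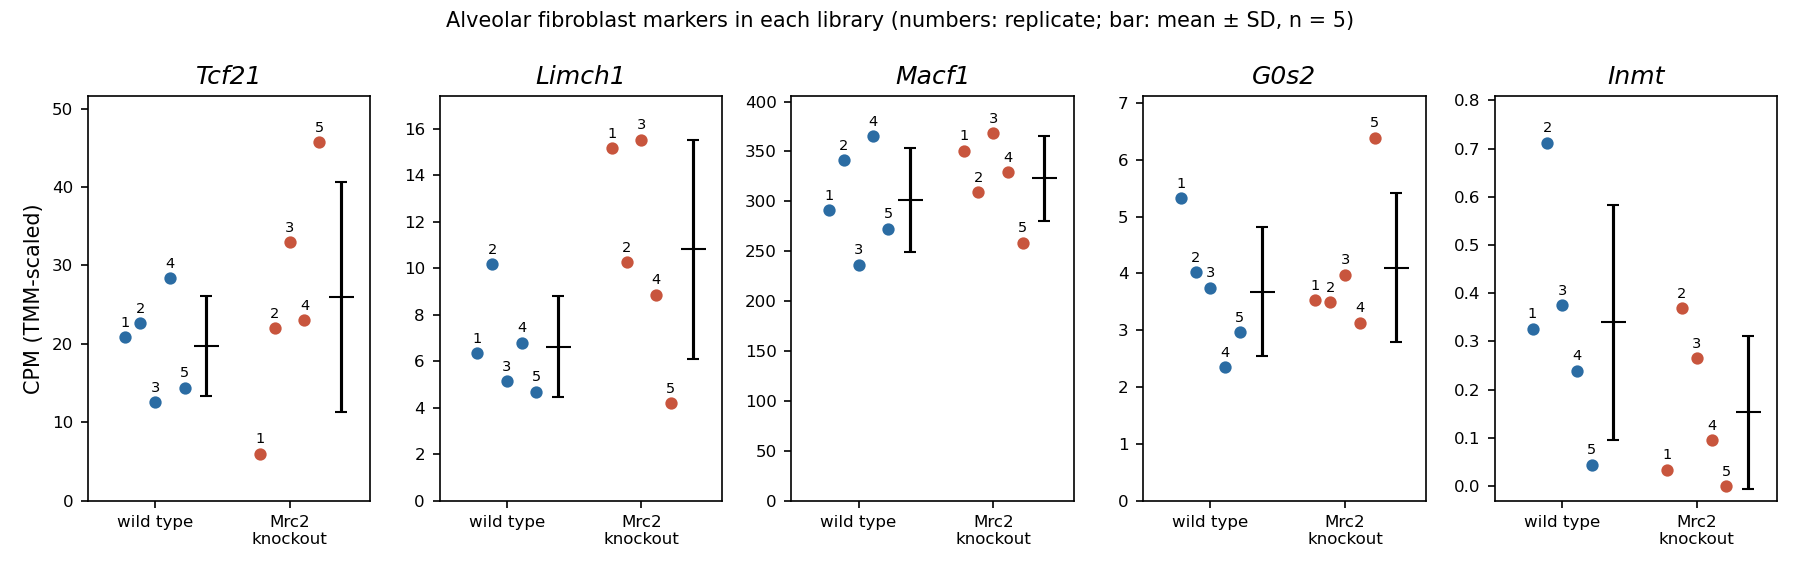
CPM of the 5 markers with more than 3 reads in some library, each in 5 wild-type (blue) and 5 Mrc2 knockout (red) libraries. Numbers are replicate numbers, and bars show the mean ± SD (n = 5). The groups overlap for every gene, and knockout replicate 5 is the highest library for Tcf21 and G0s2 and the lowest for Limch1.

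Tcf21 (ENSMUSG00000045680; mm10 chromosome 10, 22817281 to 22820174, minus strand) was present in every library and varied most in knockout. In wild-type replicates 1 to 5 it was at 20.9, 22.6, 12.5, 28.3 and 14.4 CPM. In knockout replicates 1 to 5 it was at 5.996, 21.97, 33.0, 23.0 and 45.7 CPM. Both extremes of all 10 libraries were knockout libraries, 7.63-fold apart, while knockout replicates 2 and 4 lay within the wild-type range and replicate 3 above it. The means were 19.8 ± 6.40 CPM in wild-type cells and 25.9 ± 14.7 CPM in knockout cells (SD, n = 5 each), with a log2 fold change of 0.39 (SE 0.41, 95% interval -0.52 to 1.29, adjusted p = 0.669 by edgeR). An exact two-sided permutation test of log2 CPM gave p = 0.746, where the smallest p that 5 against 5 libraries allow is 0.00794. The edgeR value was 0.076 without knockout replicate 5 and 0.64 without knockout replicate 1, and in the permutation test the mean difference turned from 0.18 to -0.087 without replicate 5.

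The antisense gene Gm10824 covers all 2894 bases of the Tcf21 span on the opposite strand. Whether the counting used strand is not stated in the sources used here, so reads of the pair may be mixed. Gm10824 was counted 11 to 73 times per library, 389 reads in all beside 5151 for Tcf21. Its lowest library was also knockout replicate 1, at 0.377 CPM, and its highest knockout replicate 5, at 2.74 CPM. In wild type it lay between 1.29 and 2.10 CPM. Its log2 fold change was 0.12 (SE 0.42, adjusted p = 0.904 by edgeR).

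The 250 bases upstream of the RefSeq start of Tcf21 are shown with those of Inmt, because Tcf21 and its E protein partners bind the E-box and these members stand far apart in level. Both are from RefSeq (GRCm38.p6), minus strand, written 5′ to 3′ as transcribed. Capitals mark CAGCTG, an E-box form, and TATAAA, the core of the TATA box, each searched on both strands.
Tcf21, chr10:22820144-22820393: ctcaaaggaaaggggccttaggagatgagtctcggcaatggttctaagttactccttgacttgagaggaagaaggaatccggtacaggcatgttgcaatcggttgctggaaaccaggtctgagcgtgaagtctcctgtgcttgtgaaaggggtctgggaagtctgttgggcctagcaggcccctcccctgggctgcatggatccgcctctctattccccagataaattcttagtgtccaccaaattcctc
Inmt, chr6:55174991-55175240: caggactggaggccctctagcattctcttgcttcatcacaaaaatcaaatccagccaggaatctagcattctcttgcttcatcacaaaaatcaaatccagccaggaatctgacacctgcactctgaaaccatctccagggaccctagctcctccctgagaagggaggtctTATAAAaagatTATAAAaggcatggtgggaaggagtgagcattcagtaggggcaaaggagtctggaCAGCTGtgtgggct
The Tcf21 window holds neither motif and no CANNTG, the general E-box. The Inmt window holds 2 CANNTG, 1 of them a CAGCTG that starts 14 bases before the start site, and 2 copies of TATAAA, 80 and 69 bases before it. Of 32851 RefSeq promoter windows of this length, 13% hold CAGCTG, 12.4% TATAAA and 66.2% CANNTG, a form that includes CAGCTG. Among the other members with a window, G0s2 holds 1 CAGCTG, 224 bases before its start, Col13a1 holds 1 TATAAA, 237 bases before its start, and 1 of the 3 Limch1 windows holds 1 TATAAA, 76 bases before its start. Windows were available for 7 of the 8 members. These matches are descriptions of letters, not binding sites.

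The E protein partners of Tcf21 were well expressed, as was Srf, which drives contractile genes with its cofactors. Of 7 genes listed as partners or opposing factors, 6 were tested, all 6 with positive values (median 0.31), and 0 passed by edgeR or DESeq2. An unadjusted edgeR p under 0.05 was found for 3, all higher in knockout, where 7.19% of all genes had such a p in that direction. They were the E protein genes. Tcf12 was at 57.5, 85.8, 53.8, 64.0 and 56.4 CPM in wild-type replicates 1 to 5 and at 114, 114, 112, 86.3 and 51.1 CPM in knockout replicates 1 to 5. Knockout replicate 5 was thus the lowest of all 10 and the other 4 lay above every wild-type library. Its log2 fold change was 0.59 (SE 0.22, adjusted p = 0.343 by edgeR). Tcf4 was at 0.36 on the same scale (SE 0.15, adjusted p = 0.355) and Tcf3 0.20 (SE 0.09, adjusted p = 0.371). With each library's trend on gene length removed, Tcf4 was at 0.0050, Tcf12 at 0.31 and Tcf3 at 0.22 (adjusted p = 0.989, 0.292 and 0.292 by edgeR). Srf, the serum response factor itself, had 0.26 (SE 0.14, adjusted p = 0.435). Myocd, the muscle-specific cofactor of Srf, did not pass the filter, at 0.315 ± 0.180 CPM in wild-type cells and 0.587 ± 0.295 CPM in knockout cells (SD, n = 5 each).

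Limch1 (ENSMUSG00000037736; chromosome 5, 66745827 to 67057158, plus strand) had the largest difference of the tested members. Wild-type replicates 1 to 5 were at 6.35, 10.2, 5.14, 6.80 and 4.68 CPM. Knockout replicates 1 to 5 were at 15.2, 10.3, 15.5, 8.87 and 4.19 CPM. Knockout replicates 1, 2 and 3 lay above every wild-type library, and knockout replicate 5 below every one. The means were 6.63 ± 2.16 CPM in wild-type cells and 10.8 ± 4.73 CPM in knockout cells (SD, n = 5 each), 1.63-fold apart in the fit (log2 fold change 0.70, SE 0.33, 95% interval -0.02 to 1.42, adjusted p = 0.385 by edgeR). The exact two-sided permutation p was 0.167. Without knockout replicate 5 the exact p was 0.0238 and the log2 fold change 0.90 (adjusted p = 0.0636 by edgeR). In that fit 29.5% of all genes had an unadjusted edgeR p under 0.05, against 13.3% with all libraries. With each library's trend on gene length removed, the log2 fold change of Limch1 was 0.50 (adjusted p = 0.408 by edgeR). Over the 10 fits that left out 1 library each, the adjusted p ran from 0.0636 to 0.659. RefSeq places 3 start sites in this gene, and counts per gene do not separate the transcripts from them.

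Macf1 (ENSMUSG00000028649; chromosome 4, 123349633 to 123684360, minus strand), with 31402 bases of exon, was the most deeply counted member and the least variable. Wild-type replicates 1 to 5 were at 291, 341, 237, 365 and 272 CPM, and knockout replicates 1 to 5 at 350, 309, 368, 329 and 258 CPM. The highest of the 10 libraries was 1.56-fold above the lowest, and the ranges overlapped almost wholly. The means were 301 ± 51.9 CPM in wild-type cells and 323 ± 42.5 CPM in knockout cells (SD, n = 5 each; edgeR log2 difference 0.10, SE 0.14, 95% interval -0.21 to 0.41, adjusted p = 0.748 by edgeR). The exact permutation p was 0.460. The sign depended on the handling of gene length: with each library's trend on length removed, the value was -0.25 (adjusted p = 0.397 by edgeR).

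Macf1 and Limch1 varied together within the groups. With each library centred on its group mean, log2 CPM of the pair gave a Pearson r of 0.80 and a Spearman rho of 0.83 over 10 libraries, which share depth and gene-length effects. The other 5 pairs of tested members had r between -0.51 and 0.30. Among 7 other genes that join actin to microtubules, to junctions or to microtubule ends, 6 were tested, 4 above and 2 below 0 (median 0.25), and 0 passed by edgeR. Clasp2, which stabilises microtubule ends and binds Macf1, was at 35.2 to 45.8 CPM in wild-type cells and at 47.9 to 60.4 CPM in knockout cells, without overlap (log2 fold change 0.43, SE 0.11, adjusted p = 0.231 by edgeR, 0.0136 by DESeq2). Of all tested genes, 2.05% had groups without overlap and 1.69% were called by DESeq2. Dst, the closest relative of Macf1, was at 209 ± 48.3 CPM in wild-type cells and 271 ± 63.4 CPM in knockout cells (0.37, SE 0.20, adjusted p = 0.429 by edgeR; n = 5 each). It overlaps other tested genes, which makes its count less certain. With the trend on gene length removed, Clasp2 was at 0.20 (adjusted p = 0.537 by edgeR) and Dst at -0.031 (adjusted p = 0.910).

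**Figure D3:**
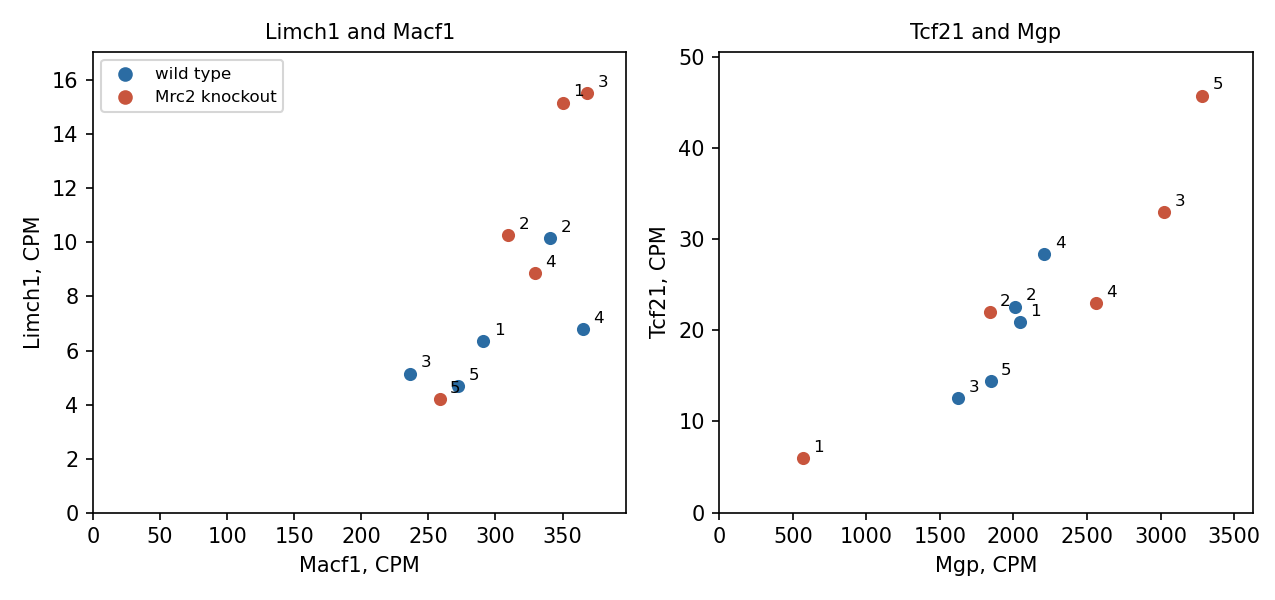
Left, CPM of Limch1 against Macf1, and right, CPM of Tcf21 against Mgp, each point a library (blue wild type, red Mrc2 knockout, numbers the replicate). Knockout replicates 1 and 3 are highest for Limch1, at 15.2 and 15.5 CPM, while knockout replicate 1 is lowest for Tcf21 and Mgp, at 5.996 and 567 CPM.

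Col13a1 (ENSMUSG00000058806; chromosome 10, 61838236 to 61979108, minus strand), the gene this fibroblast class is named after, was barely detected. It had 2 reads in wild-type replicate 5 and 0 in the other 4 wild-type libraries. Knockout replicates 2 and 5 had 3 reads each, and the other 3 knockout libraries 0. A count of 0 allows up to 3 reads, which is at most 0.161 CPM in these libraries, counting error only. Both groups were at or under that floor, so no fold was formed, and the exact permutation p was 0.444. The other transmembrane collagens Col17a1, Col23a1 and Col25a1 were also too low to be tested, with a summed level of at most 1.04 CPM in any library. Col23a1 was at 0.420 to 0.907 CPM in wild-type cells and 0.212 to 0.403 CPM in knockout cells. In knockout replicate 5, where the 3 genes summed to 0.898 CPM, Col23a1 was less than the rest. Its lowest wild-type and highest knockout libraries, at 0.420 and 0.403 CPM, almost met, at a level of few reads that was not tested.

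Inmt (ENSMUSG00000003477; chromosome 6, 55170626 to 55175043, minus strand) was counted 7, 22, 7, 5 and 1 times in wild-type replicates 1 to 5 and 1, 11, 5, 2 and 0 times in knockout replicates 1 to 5. Wild-type replicate 2 was the highest library and knockout replicate 5 had no read. In CPM the means were 0.340 ± 0.244 in wild type and 0.153 ± 0.158 in knockout (SD, n = 5 each), close to the floor of 3 reads, and 4 of 5 knockout libraries lay below the wild-type mean of log2 CPM. The difference in mean log2 CPM was -0.89, with an exact two-sided permutation p of 0.198. Among other methyltransferases of small molecules, Nnmt, which methylates nicotinamide, was far higher, at 56.3 ± 14.4 CPM in wild-type cells and 41.8 ± 7.61 CPM in knockout cells (SD, n = 5 each; edgeR log2 difference -0.43, SE 0.18, adjusted p = 0.354 by edgeR). All 4 tested genes of that list had values below 0 (median -0.22), 1 of them, Nnmt, with an unadjusted p under 0.05 (6.1% of all genes were lower at that p), and 0 passed by edgeR or DESeq2.

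Ces1d (ENSMUSG00000056973; chromosome 8, 93166068 to 93197838, minus strand) had 1 read each in wild-type replicates 1 and 2 and none in the other 8 libraries. Its neighbours of the same family can share reads with it. How such reads were counted is not stated in the sources used here. The neighbours were also low: of 7 other class 1 carboxylesterase genes, 5 had no read in any library (Ces1b, Ces1c, Ces1e, Ces1f and Ces1h), and Ces1a and Ces1g together reached at most 0.144 CPM. Slc7a10 (ENSMUSG00000030495; chromosome 7, 35186385 to 35201114, plus strand) had no read in any of the 10 libraries, which allows at most 0.161 CPM (3 reads in wild-type replicate 3). Lrp3, counted 60 to 257 times, overlaps 1088 of its 14730 bases on the opposite strand.

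The transporter family of Slc7a10 was otherwise expressed. Of 8 other light and heavy chains 6 were tested, 5 above and 1 below 0 (median 0.13), and 0 passed by edgeR, and 2 had an unadjusted p under 0.05, both higher (7.19% of all genes). Slc3a2, the heavy chain that Slc7a10 and related transporters need at the membrane, was at 193 ± 26.4 CPM in wild-type cells and 189 ± 34.6 CPM in knockout cells (SD, n = 5 each; adjusted p = 0.937 by edgeR). Slc7a5, which carries large neutral amino acids, was at 82.7 to 126 CPM in wild-type cells and at 136 to 171 CPM in knockout cells, without overlap (log2 fold change 0.66, SE 0.13, adjusted p = 0.143 by edgeR, 0.00123 by DESeq2). Over all tested genes, 2.05% had groups without overlap and DESeq2 called 1.69%.

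G0s2 (ENSMUSG00000009633; chromosome 1, 193272161 to 193273217, minus strand) was low but present in all libraries, with 49 to 128 reads. Wild-type replicates 1 to 5 were at 5.32, 4.02, 3.75, 2.35 and 2.96 CPM, and knockout replicates 1 to 5 at 3.53, 3.49, 3.98, 3.13 and 6.38 CPM. Knockout replicates 1 to 4 lay within the wild-type range and replicate 5 above it. The means were 3.68 ± 1.13 CPM in wild-type cells and 4.10 ± 1.31 CPM in knockout cells (SD, n = 5 each; edgeR log2 difference 0.15, SE 0.26, 95% interval -0.43 to 0.73, adjusted p = 0.796 by edgeR), and the exact permutation p was 0.579. The value was -0.065 without knockout replicate 5. All 1057 bases of the G0s2 span lie within Lamb3, on the opposite strand, which was counted at most 10 times in a library.

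Genes of triglyceride breakdown and lipid droplets around G0s2 had fitted values below 0. All 7 were tested, with a median log2 fold change of -0.36 and 0 passing by edgeR. An unadjusted p under 0.05 was found for 4, all lower in knockout, where 6.1% of all genes had such a p in that direction. The list was chosen with earlier results of these data known, so that count is a description and not a test. Pnpla2, the lipase that G0s2 inhibits, was at 50.5, 52.1, 45.6, 47.6 and 51.0 CPM in wild-type replicates 1 to 5 and at 32.5, 37.1, 39.2, 40.9 and 42.2 CPM in knockout replicates 1 to 5. Every knockout library lay below every wild-type library (log2 fold change -0.36, SE 0.10, adjusted p = 0.241 by edgeR, 0.0212 by DESeq2). Groups without overlap were seen for 2.05% of all tested genes, and DESeq2 called 1.69%. Plin2, a coat protein of lipid droplets also used as a lipofibroblast marker, was at 357 ± 132 and 212 ± 71.1 CPM (SD, n = 5 each; -0.75, SE 0.27, adjusted p = 0.335 by edgeR), with its highest level in wild-type replicate 5, the library with the highest leukocyte sum. The part of leukocytes in that level was not tested. Mgll, which cleaves monoglycerides, had -0.39 (SE 0.16, adjusted p = 0.352 by edgeR), and Lipe, a second triglyceride lipase whose span overlaps another tested gene, -0.56 (SE 0.25, adjusted p = 0.367 by edgeR). Abhd5, the coactivator of Pnpla2, averaged 32.2 ± 3.28 CPM in wild-type cells and 32.2 ± 4.08 CPM in knockout cells (SD, n = 5 each).

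Among 14 other genes used as alveolar fibroblast markers, values went both ways. Of the 11 tested, 7 were above 0 and 4 below (median 0.12), 0 passed by edgeR, and 4 had an unadjusted p under 0.05, of which 1 was higher and 3 lower (7.19% and 6.1% of all genes). Npnt, a matrix ligand of integrin alpha 8, was at 45.9 to 82.0 CPM in wild-type cells and at 115 to 175 CPM in knockout cells (log2 fold change 1.05, SE 0.17, adjusted p = 0.141 by edgeR, 2.47e-05 by DESeq2). Its receptor chain Itga8 had 0.29 (SE 0.18, adjusted p = 0.470 by edgeR). Fgf10, the growth factor of lung mesenchyme that feeds epithelial progenitors, was at 43.3, 52.1, 15.6, 66.9 and 20.5 CPM in wild-type replicates 1 to 5 and between 14.1 and 21.8 CPM in knockout. Wild-type replicates 3 and 5 overlapped the knockout range while the other 3 lay above it (log2 fold change -1.22, SE 0.35, adjusted p = 0.258 by edgeR, 0.0408 by DESeq2). Spon1, a secreted matrix protein, had -0.59 (SE 0.27, adjusted p = 0.375 by edgeR). The remaining lower gene of that count was Plin2, which also counts among the lower genes of the list around G0s2. Fgfr4, Wnt2 and Nebl, like Inmt and Col13a1, did not pass the filter.

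**Figure D4:**
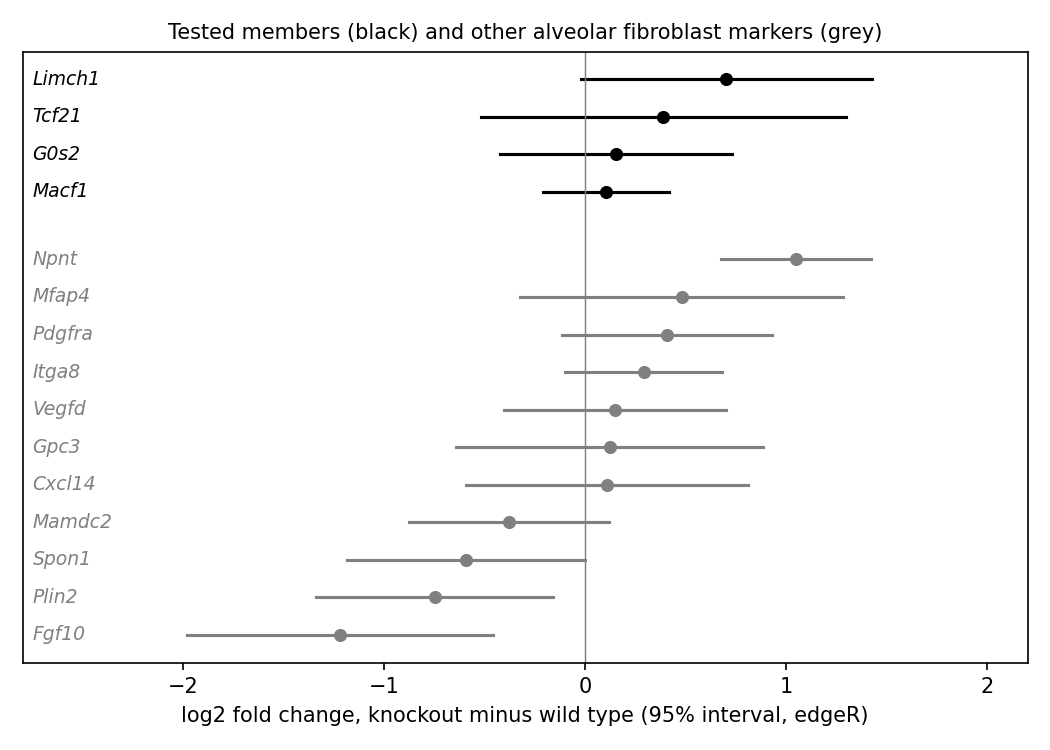
Log2 fold changes of knockout minus wild type with 95% intervals from edgeR, for the 4 tested members (black) and the 11 tested genes of the other alveolar fibroblast markers (grey). The intervals of all 4 members include 0, from Limch1 at 0.70 to Macf1 at 0.10, while Npnt at 1.05 and Fgf10 at -1.22 mark the ends of the grey set.

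Beside the 4 of 8 alveolar members, the filter kept 11 of 14 other alveolar, 11 of 13 adventitial, 9 of 10 myofibroblast, 5 of 8 pericyte, 8 of 8 mesothelial, 8 of 8 leukocyte, 6 of 8 endothelial and 2 of 8 epithelial markers. None of the tested genes of the other cell types passed between genotypes by edgeR or DESeq2. The median log2 fold changes were 0.16 for myofibroblast, 0.31 for pericyte, -0.90 for mesothelial, -0.27 for leukocyte, 0.43 for endothelial and 0.046 for epithelial markers. Single libraries moved several of them. The leukocyte median was 0.13 without wild-type replicate 5, and the mesothelial median -0.45 without wild-type replicate 4. The myofibroblast median ranged from 0.041 to 0.38, the pericyte median from 0.14 to 0.40, the endothelial median from 0.27 to 0.61 and the epithelial median from -0.14 to 0.19 when 1 library was left out. Col14a1, an adventitial collagen whose count may include overlapping genes, had 1.10 (SE 0.33, adjusted p = 0.282 by edgeR), Myh11, smooth muscle myosin, 0.82 (SE 0.33, adjusted p = 0.350), Notch3, a pericyte receptor, 1.03 (SE 0.34, adjusted p = 0.306), and Msln, the mesothelial surface protein, -1.54 (SE 0.64, adjusted p = 0.354). Tcf21 was lowest in knockout replicate 1, where the 8 pericyte markers summed to 771 CPM against 371 to 581 CPM elsewhere. Most of that sum was Pdgfrb alone, at 655 CPM in knockout replicate 1. Pdgfrb, Notch3 and Abcc9 were highest in that library, while Cspg4, Cox4i2, Rgs5, Higd1b and Kcnj8 were highest in other libraries. The 8 mesothelial markers summed to 96.3 CPM in knockout replicate 1, the lowest of all libraries. The adventitial marker Ly6c1 was at 42.4 CPM in knockout replicate 1 and at 1.54 to 8.52 CPM in the other 9. Ly6a, a marker of the same class, was at 209 and at 23.8 to 78.1 CPM. The rest of the adventitial list went both ways in that library. Col14a1, Cd248, Il33, Pi16 and Clec3b were also at their highest there. Dpp4, at 0.445 CPM, and Ccl11 were at their lowest. Mfap5, Serpinf1, Cd34 and Dcn lay within the range of the other libraries. Clec3b and Ccl11 did not pass the filter. Log2 CPM centred on the group mean was also set against the average of each list's tested genes. Over 10 libraries Tcf21 gave a Pearson r of -0.73 with pericyte, -0.67 with adventitial and 0.36 with mesothelial markers. Without knockout replicates 1 and 5 these were -0.018, 0.55 and 0.33. They are among 52 such relations and are descriptions. The part of these cell types in the Tcf21 level was not tested. Without knockout replicate 1 the median log2 fold change of the adventitial list moved from 0.19 to -0.30.

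The genes whose pattern came closest to each tested member were taken as the 2 with the highest Pearson r of group-centred log2 CPM, among 12044 genes over the 10 libraries. For Tcf21 these were Mgp, the matrix Gla protein that inhibits calcification (r = 0.95, rho = 0.92), and Sept4, a septin (r = 0.91, rho = 0.85). Mgp was at 1622 to 2211 CPM in wild-type cells and at 567, 1838, 3026, 2562 and 3284 CPM in knockout replicates 1 to 5, so knockout replicates 1 and 5 were its extremes too. Without those libraries r was 0.77 for Mgp and 0.85 for Sept4. For Limch1 they were Ube4a, a ubiquitin ligase (r = 0.99, rho = 0.99), and Zfp597, a zinc finger gene (r = 0.99, rho = 0.95). For Macf1 they were Cldnd1 and Tmem185a, both with r = 0.97 (rho of 0.93 and 0.92). For G0s2 they were Mta3, a chromatin cofactor (r = 0.95, rho = 0.95), and 2810006K23Rik (r = 0.86, rho = 0.79). Without knockout replicate 5 and wild-type replicate 1, r was 0.89 for Mta3 and 0.64 for 2810006K23Rik. For the genes closest to Limch1 and Macf1, r without the 2 farthest libraries lay between 0.91 and 0.98. The highest of so many coefficients is high by selection, and the values are descriptions of these libraries.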

How the data were processed

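Raw read counts per Ensembl gene were used as the authors deposited them, with 1 column per library, 54532 genes and 0 summary rows. Per the submitters' processing notes, the genome build was mm10 and the tools were HTSeq 0.6.1, STAR 2.5 and DESeq2 2. What each did, which annotation was used and whether reads were counted by strand are not stated there. No molecular identifiers are mentioned, so floors cover counting error only. Groups and replicate numbers came from the titles. The members and lists were chosen with earlier results of these data known. The counts per list set beside the shares of all genes are therefore descriptions, not tests.

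Genes were filtered with filterByExpr (14360 of 28582 with a read kept) and tested by edgeR 4.0.16 with quasi-likelihood (R 4.3.3, TMM, no covariate), called at a Benjamini-Hochberg adjusted p under 0.05 over all tested genes. SE came from the fold change and its F statistic (size over root F). A prior count of 2 went into log2 CPM. The code was tested on simulated data. Members were also compared by an exact permutation test over libraries, unadjusted. Genes named are the 8 members, Mrc2, up to 4 genes with the smallest p per list, relatives of members, and the 2 closest patterns; overlapping genes, Itga8, Col1a1, Sftpa1, Ly6a and Ly6c1 were added after values were seen. The 15 lists held 120 genes, 2 of them matched by an older symbol. The table stores 27 symbols as dates, and Sept4 was named from its gene ID. Alternatives were other scalings and filters, DESeq2 1.42.0, limma-voom (limma 3.58.1), a replicate block, a length trend offset and leaving out each library. Replicates differed beyond sampling noise in every pair (lowest chi-square per degree of freedom 18.9).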

Additional observations from a re-analysis of the deposited data

Results flagged for a closer look

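G0s2 in knockout replicate 5, at 6.38 CPM, stood apart from the other 4 knockout libraries (3.13 to 3.98 CPM) by a gap that took up most of the range of the group. It was 1 of 10 groups of 5 libraries checked, and chance alone marks about 1 group in 20. The same library was the highest for Tcf21, at 45.7 CPM, and the lowest for Limch1, at 4.19 CPM.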

How the results depend on the processing

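The number of members called was 0 under every alternative run. The count over all genes, 2 with the settings used, was 243 with DESeq2, 1 with limma-voom, 1 with the length trend offset, 0 with the replicate block, and 1 to 203 when a library was left out, the 203 without knockout replicate 5. Of 76 alternative fold changes of the tested members, 74 kept their sign. Macf1 turned to -0.25 with the length trend offset. G0s2 turned to -0.065 without knockout replicate 5 and ran up to 0.32 when another library was left out. In the exact permutation tests, differences ran from -0.087 to 0.64 for Tcf21, from -0.010 to 0.30 for G0s2 and from 0.45 to 0.91 for Limch1 when a library was left out, the last with p = 0.0238 without knockout replicate 5. The cause was not tested. Same-numbered libraries of the groups had correlations between -0.24 and 0.38, and 1 of 5 wild-type libraries correlated best with its own number, so the numbers were not taken to pair the samples. With the replicate block Tcf21 was at 0.21 and Limch1 at 0.62. Depth limits Inmt, Col13a1, Ces1d and Slc7a10, which lay near or under the 3-read floor.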
